A study of Homo sapiens with 21 samples.

Results

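The 49 genes described here are the human proteasome genes, out of 65065 genes in the deposited table. They were taken by symbol, as protein-coding genes on the primary chromosomes named PSMA to PSMG with a number, without antisense genes and without pseudogenes. Of 101 symbols that matched, 45 were pseudogenes by name and 7 were antisense or divergent transcripts. The set holds 19 genes of the core particle (PSMA and PSMB), 20 of the regulatory cap (PSMC and PSMD) and 9 of the activators, the inhibitor and the assembly chaperones (PSME, PSMF and PSMG). The remaining gene, PSMC3IP, is matched by its symbol but is no subunit.

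The proteasome degrades proteins that carry ubiquitin chains. Its core is a barrel of stacked rings, with alpha subunits forming the gated outer rings and beta subunits the inner rings that hold the cutting sites. The cap sits on the barrel, where its lid and base bind and remove ubiquitin and its ring of ATPases unfolds the substrate and opens the gate. Subunit genes are known to rise together through the transcription factor NRF1, encoded by NFE2L1, when proteasome activity is short.

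The recipient cells were HCT-116, an epithelial-like line from a human colorectal carcinoma. They received extracellular vesicles (EVs), which are particles with a membrane that cells shed, isolated from serum by GlyExo-Capture. Serum of patients with hepatocellular carcinoma gave the HCC+ EVs and serum of healthy people the HCC- EVs, each at 0.048, 0.24 or 1.2 mg/mL, and cells given no EVs (0 mg/mL) were the Blank. The medium of every group was DMEM with serum depleted of exosomes, and each of the 7 groups gave 3 poly(A) RNA libraries. The labels do not say whether the 3 libraries were separate cultures or how many donors a serum came from, so the p-values measure the spread between these libraries, which may be technical.

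The 21 libraries held 31219343 to 64012757 counts of reads in genes, with 44103480 to 54737994 at 1.2 mg/mL of HCC+ EVs, 44037433 to 54948399 at 1.2 mg/mL of HCC- EVs and 31219343 to 42958433 in the Blank. A filter on low counts left 19556 genes, which were tested with edgeR's quasi-likelihood test, with Benjamini-Hochberg adjustment over all of them, and a gene is said to rise or fall where its adjusted p was under 0.05. The first principal component, 34.6% of the variance, put the 6 libraries at 1.2 mg/mL at -25.5 to -87.6 and all others at 12.3 to 31.6. Of 8 leukocyte markers 3 were tested, CD14, LYZ and HLA-DRA, and all 3 rose with both sources at 1.2 mg/mL. Their list summed to 2.97 to 4.19 CPM with HCC+ EVs and 5.09 to 6.96 CPM with HCC- EVs, against 1.15 to 1.55 CPM in the Blank, while PTPRC had at most 4 counts in a library and S100A8 and S100A9 had 0 in all. The 3 endothelial markers summed to 2.58 to 3.29 CPM with HCC+ EVs and 5.70 to 7.81 CPM with HCC- EVs, against 0.508 to 0.591 CPM in the Blank, with PECAM1 and VWF higher and CDH5 at 22 counts in all libraries together. The fibroblast list summed to 21.3 to 30.7 CPM with HCC+ EVs and 28.3 to 34.1 CPM with HCC- EVs, against 14.3 to 17.7 CPM in the Blank, almost all of it COL1A1, with 2 counts of COL1A2 in all. Erythroid markers summed to 0.265 to 0.821 CPM with HCC+ EVs and 0.371 to 0.935 CPM with HCC- EVs, against 0.0677 to 0.1497 CPM in the Blank. Of the 2 that were tested SLC4A1 rose with HCC- EVs (2.74 ± 0.95, adjusted p = 0.0152). The platelet markers PPBP and PF4 had 0 counts, while GP1BA, the third of that list, fell with HCC- EVs (-0.76 ± 0.20, adjusted p = 0.00189) and was at -0.33 ± 0.20 with HCC+ EVs, which did not pass. The platelet list summed to 2.24 to 3.56 CPM with HCC+ EVs and 1.54 to 2.77 CPM with HCC- EVs, against 3.42 to 3.89 CPM in the Blank. The hepatocyte markers summed to at most 0.523 CPM. The 7 epithelial markers summed to 3897 to 4146 CPM with HCC+ EVs and 3286 to 3558 CPM with HCC- EVs, against 3675 to 4473 CPM in the Blank. The part of these shifts in the proteasome results was not tested, and in bulk RNA fewer cells of a type and less RNA per cell cannot be told apart.

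In Blank cells the proteasome genes spanned a wide range of levels. Per kilobase of annotated exon, the beta subunit PSMB3 had the highest level, at 189 ± 13.6 CPM per kb (SD, n = 3), where CPM are counts relative to the TMM-scaled library size. The alpha subunit PSMA7 followed at 181 ± 13.4 CPM per kb, within the spread of PSMB3. PSMB4 (146 ± 13.3 CPM per kb), the ubiquitin-docking base subunit PSMD2 (145 ± 5.45 CPM per kb) and PSMB1 (143 ± 7.69 CPM per kb) came next and did not differ beyond their spread. The 7 standard beta genes had a median of 134.8 CPM per kb, the 6 ATPases 45.8, the 8 lid genes 42.1 and the 4 core assembly chaperones 21.3. At the low end, the immunoproteasome genes PSMB8, PSMB9 and PSMB10, whose products replace the standard cutting subunits in immune and interferon-treated cells, had levels of 0.0346 to 0.727 CPM per kb. PSMA8, the testis form of an alpha subunit, had 0 counts in the Blank, which allows up to 0.0260 CPM over the 3 libraries, and 8 counts in all 21 libraries. PSMB11, the thymus form of a beta subunit, had 4 counts in the Blank and 10 in all, and neither gene was tested. PSMA2, PSMA6, PSMD9 and PSMB10, at 0.527 to 0.831 CPM per kb, and PSMA1, at 5.29 ± 0.851 CPM per kb, share 14.1% to 39.4% of their exon bases with other genes of the table. No source used here says how reads in shared bases were counted, so the levels of these 5 genes are uncertain. The same limit holds for PSMC1 (76.1% of exon bases shared), PSMD7 (31.2%), PSMC3IP (29.9%), PSMB8 (17.6%), PSMC5 (15.3%) and PSMG4 (15.0%). Medians over roles that hold such genes carry it too. Gene length is taken over all annotated exons, which lowers the level of genes with long rare exons.

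Summed proteasome transcripts were lower at the highest EV dose, and more so with HCC- than with HCC+ EVs. The core genes summed to 2404 ± 17.0 CPM with HCC+ EVs at 1.2 mg/mL and 1943 ± 35.4 CPM with HCC- EVs, against 2774 ± 107 CPM in the Blank (SD, n = 3 each). The cap genes summed to 3721 ± 109 CPM with HCC+ EVs and 3070 ± 104 CPM with HCC- EVs, against 4138 ± 64.4 CPM in the Blank. The regulators and chaperones summed to 761 ± 21.4 CPM with HCC+ EVs and 629.7 ± 8.60 CPM with HCC- EVs, against 884 ± 17.0 CPM in the Blank. In none of the 3 sums did the libraries of these groups overlap. At 0.048 and 0.24 mg/mL the core sums were 2631 to 2769 CPM with HCC+ EVs and 2656 to 2877 CPM with HCC- EVs, which overlapped the Blank libraries at 2651 to 2837 CPM. All 49 genes together took 0.717 ± 0.00510% of the counts with HCC+ EVs at 1.2 mg/mL and 0.657 ± 0.0180% with HCC- EVs, against 0.747 ± 0.00400% in the Blank. This share scales each library by its total count, and its groups did not overlap either. Relative to the Blank it fell less than the TMM-scaled sums.

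**Figure D1:**
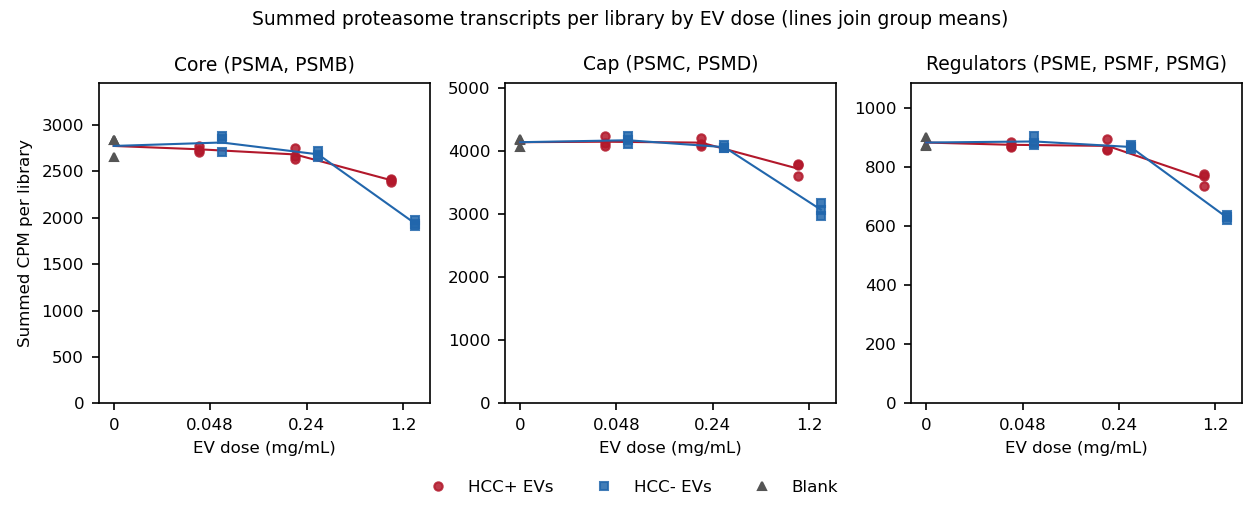
Summed CPM of the core, cap and regulator genes in each of the 21 libraries against EV dose in mg/mL (doses drawn at equal steps), with lines through the group means and the Blank at dose 0. The libraries at 1.2 mg/mL lie below all others, and the HCC- libraries (core 1911 to 1981 CPM) lie below the HCC+ libraries (core 2385 to 2417 CPM).

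With HCC+ EVs at 1.2 mg/mL, 25 of the 47 tested proteasome genes fell against the Blank and 1, PSME4, rose. Over all tested genes 17.4% fell and 15.6% rose in that comparison. With HCC- EVs at 1.2 mg/mL, 39 of 47 fell and 1, PSMB10, rose, while over all tested genes 28.5% fell and 24.8% rose. The median log2 fold change of the 47 genes was -0.20 with HCC+ EVs and -0.48 with HCC- EVs, against 0.01 and 0.05 for all tested genes. All 3 libraries lay below all Blank libraries for 26 of 47 genes with HCC+ EVs (19.6% of all tested genes) and above them for 1 (20.3%). With HCC- EVs they lay below for 38 (28%) and above for 0 (28.4%). The 2 comparisons share the Blank libraries, so their likeness is no independent evidence. Proteasome genes are abundant, and abundant genes fell more often. Among the 6124 tested genes averaging 5 log2 CPM or more, a limit chosen after seeing the data, 36% fell with HCC+ EVs and 57.3% with HCC- EVs, beside 24 and 35 of the 38 proteasome genes in that range. When libraries were scaled by total count, the median of all genes moved by 0.12 with HCC+ EVs and by 0.28 with HCC- EVs. The proteasome median was then -0.078 with HCC+ EVs and -0.19 with HCC- EVs, 0.21 and 0.52 below that of all genes. With TMM scaling these gaps were 0.21 and 0.53. A change of scaling moves all genes nearly alike, so the gaps could hardly differ and are no evidence on the scaling. Under total count scaling 15 proteasome genes fell and 4 rose with HCC+ EVs, where 2069 of all 19556 tested genes fell and 4657 rose. With HCC- EVs 27 fell and 5 rose, where 3097 of all tested genes fell and 8128 rose. The falls that no longer passed were those of PSMA3, PSMA5, PSMB4, PSMB6, PSMC6, PSMD12, PSMD13, PSMD14, PSMF1 and PSMG2 with HCC+ EVs. With HCC- EVs they were those of PSMB4, PSMB7, PSMC1, PSMC2, PSMC5, PSMD2, PSMD3, PSMD5, PSMD6, PSMF1, PSMG3 and PSMG4. After removing the trends of each library with GC content and gene length, 24 proteasome genes fell and 4 rose with HCC+ EVs, where 3706 of all tested genes fell and 3487 rose. With HCC- EVs 32 fell and 4 rose, where 4711 of all tested genes fell and 6330 rose. The falls of PSMA3, PSMA5, PSMB4, PSMD10 and PSMD14 with HCC+ EVs and of PSMA5, PSMB7, PSMC2, PSMC5, PSMD5, PSMD6 and PSMD14 with HCC- EVs did not pass then. PSMC3, PSMD3, PSMD9 and PSMD11, which had not passed with HCC+ EVs before, fell with HCC+ EVs in that setting.

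**Figure D2:**
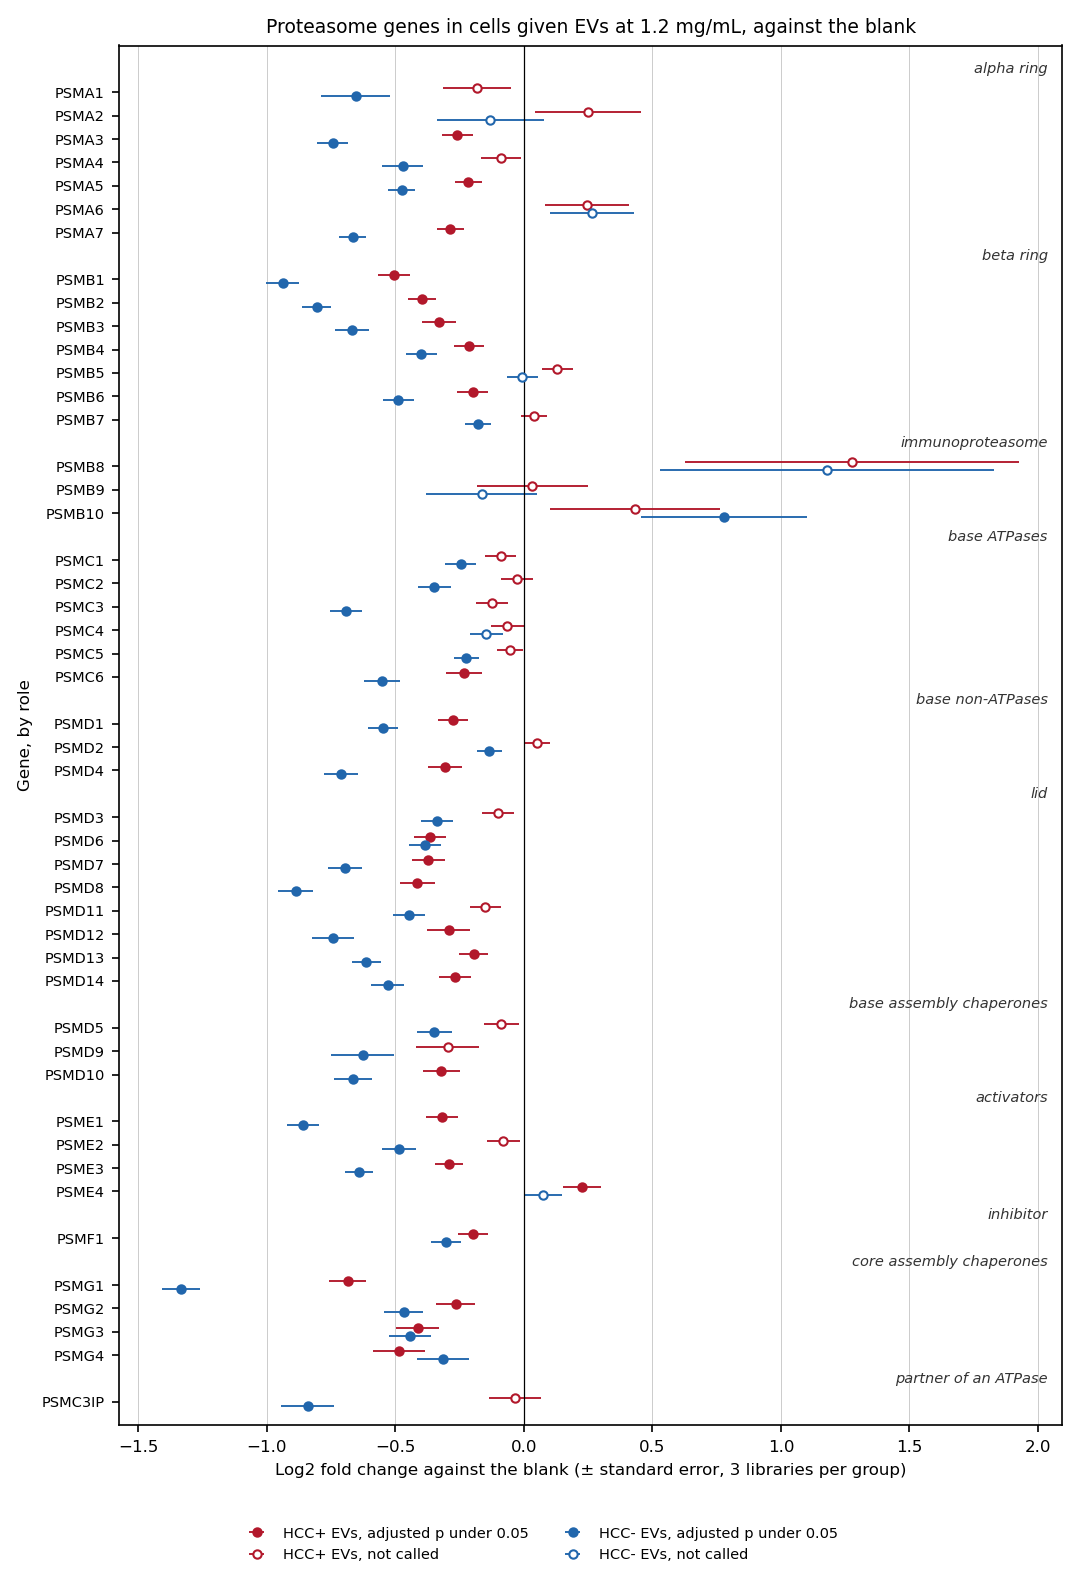
Log2 fold change against the Blank (horizontal axis, ± standard error, 3 libraries per group) of the 47 tested genes, ordered by role, for HCC+ EVs (red) and HCC- EVs (blue) at 1.2 mg/mL, with filled points for adjusted p under 0.05. Most points lie left of 0, and for most genes the HCC- point lies left of the HCC+ point, with PSMG1 lowest at -0.68 and -1.33.

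Promoters are printed for the gene with the largest fall with HCC- EVs in the core, the cap and the regulators among those with an entry in the RefSeq promoter table (PSMB2, PSMD8 and PSMG1), and for the catalytic subunit PSMB5 and the activator PSME4, which did not fall. Each runs from 250 bases before to 50 after the gene start in RefSeq, 5' to 3' on the gene's strand, on GRCh38.p14. The PSMG1 window, 39183402 to 39183701, lies wholly inside the gene as counted here (39174769 to 39183851), after the start of that gene. Capitals mark matches, on either strand, to TGACNNNGC, the core of the antioxidant response element that NRF1 and its relatives bind, to the CCAAT box, or to the ETS site CCGGAAG.
PSMB2 (chr1:35641477-35641776, - strand): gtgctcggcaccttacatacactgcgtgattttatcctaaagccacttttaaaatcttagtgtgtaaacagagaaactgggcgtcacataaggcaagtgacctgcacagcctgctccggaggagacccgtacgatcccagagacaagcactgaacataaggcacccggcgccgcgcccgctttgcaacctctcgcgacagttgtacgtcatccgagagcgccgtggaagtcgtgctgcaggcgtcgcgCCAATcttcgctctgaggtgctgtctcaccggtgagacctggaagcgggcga
PSMD8 (chr19:38374321-38374620, + strand): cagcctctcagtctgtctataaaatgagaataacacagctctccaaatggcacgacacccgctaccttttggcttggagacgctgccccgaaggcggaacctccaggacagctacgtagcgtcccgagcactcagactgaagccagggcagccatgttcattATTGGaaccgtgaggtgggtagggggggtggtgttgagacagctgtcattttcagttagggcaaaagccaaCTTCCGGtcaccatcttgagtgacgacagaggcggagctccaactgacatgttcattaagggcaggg
PSMG1 (chr21:39183402-39183701, - strand): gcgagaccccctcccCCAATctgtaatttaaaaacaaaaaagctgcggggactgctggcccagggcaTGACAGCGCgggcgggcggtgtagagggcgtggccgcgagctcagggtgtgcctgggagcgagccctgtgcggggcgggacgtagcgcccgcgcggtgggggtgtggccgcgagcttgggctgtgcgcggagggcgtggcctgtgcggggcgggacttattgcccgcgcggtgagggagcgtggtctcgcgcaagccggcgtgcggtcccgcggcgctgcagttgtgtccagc
PSMB5 (chr14:23035171-23035470, - strand): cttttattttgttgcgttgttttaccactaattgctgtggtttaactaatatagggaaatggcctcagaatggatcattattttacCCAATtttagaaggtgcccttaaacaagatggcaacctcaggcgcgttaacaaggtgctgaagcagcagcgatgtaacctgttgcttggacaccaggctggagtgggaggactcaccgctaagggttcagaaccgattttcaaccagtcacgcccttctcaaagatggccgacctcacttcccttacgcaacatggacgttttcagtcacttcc
PSME4 (chr2:53970944-53971243, - strand): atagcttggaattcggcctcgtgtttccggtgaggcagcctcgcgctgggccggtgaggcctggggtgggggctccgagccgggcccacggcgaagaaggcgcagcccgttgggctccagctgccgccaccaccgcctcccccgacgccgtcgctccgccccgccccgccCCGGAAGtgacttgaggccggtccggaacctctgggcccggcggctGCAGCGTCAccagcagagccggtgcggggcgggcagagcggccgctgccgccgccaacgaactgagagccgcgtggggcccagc
Of the 49 genes 43 had an entry, and PSMA7, PSMB1, PSMB6, PSMB7, PSMD4 and PSMG3 had none. TGACNNNGC stood in 13 of the 43 promoters (30.2%) and in 13.6% of 27305 promoters on the primary chromosomes. CCAAT stood in 20 (46.5%) and in 35.7% of all, and CCGGAAG in 14 (32.6%) and in 10.7% of all. The tested genes with TGACNNNGC had a median log2 fold change with HCC- EVs of -0.48 (13 genes), against -0.46 for those without it (28 genes). For CCAAT the medians were -0.64 with it (19 genes) and -0.42 without it (22 genes), and for CCGGAAG they were -0.55 (13 genes) and -0.46 (28 genes). The printed PSMG1 window holds TGACNNNGC and the gene fell, whereas the PSME4 window holds it and the gene did not fall. A match is a description of letters and not a site of binding.

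In the alpha rings, which form the gate of the barrel, 3 of 7 genes fell with HCC+ EVs and 5 of 7 with HCC- EVs at 1.2 mg/mL. Over all tested genes 17.4% fell with HCC+ EVs and 28.5% with HCC- EVs. Among tested genes averaging 5 log2 CPM or more 36% and 57.3% fell, and the alpha counts were near these shares. Changes are log2 fold changes ± standard error with edgeR's adjusted p, and positions are on GRCh38. PSMA3 (ENSG00000100567, chromosome 14, positions 58244843 to 58272012) was at 127, 132 and 135 CPM in the HCC+ libraries and 99.7, 91.9 and 89.4 CPM in the HCC- libraries, against 164, 149.9 and 157 CPM in the Blank libraries. The 3 groups did not overlap, and the log2 fold changes were -0.26 ± 0.060 with HCC+ EVs (adjusted p = 0.00104) and -0.74 ± 0.060 with HCC- EVs (adjusted p = 5.58e-12). PSMA7 (ENSG00000101182, chromosome 20, positions 62136733 to 62143440) is the most abundant alpha transcript. It was at 266, 255 and 261 CPM with HCC+ EVs and 197, 204 and 199.9 CPM with HCC- EVs, against 314, 343 and 296 CPM in the Blank. It fell with both sources, at -0.29 ± 0.052 with HCC+ EVs (adjusted p = 7.2e-05) and -0.67 ± 0.053 with HCC- EVs (adjusted p = 3.28e-12), again without overlap. PSMA5 (ENSG00000143106, chromosome 1, positions 109399042 to 109426448) was at 172, 178 and 187 CPM with HCC+ EVs and 150.3, 155 and 143 CPM with HCC- EVs, against 216, 208 and 199.5 CPM in the Blank. Its log2 changes of -0.22 ± 0.054 with HCC+ EVs (adjusted p = 0.00201) and -0.48 ± 0.054 with HCC- EVs (adjusted p = 6.14e-09) passed, but with GC and length trends removed they were -0.066 with HCC+ EVs and -0.077 with HCC- EVs and did not. PSMA3's fall with HCC+ EVs also no longer passed then, at -0.019, and its fall with HCC- EVs was -0.23. PSMA4, whose tail anchors the closed gate, was at -0.089 ± 0.079 with HCC+ EVs, which did not pass, and fell, at -0.47 ± 0.079 with HCC- EVs (adjusted p = 6.75e-06). Without Blank replicate 2 PSMA4 was also called lower with HCC+ EVs. PSMA1 (ENSG00000129084, chromosome 11, positions 14504874 to 14643635), with 24.7% of its exon bases shared with another gene, was at 14.1, 17.1 and 14.8 CPM with HCC+ EVs and 13.4, 7.995 and 11.7 CPM with HCC- EVs, against 20.4, 14.8 and 17.3 CPM in the Blank. The HCC- libraries lay below both other groups, with a log2 change of -0.65 ± 0.14 against the Blank (adjusted p = 0.000127), and the HCC+ libraries overlapped the Blank (-0.18 ± 0.13). PSMA2 and PSMA6, at under 7 CPM in every library, passed in no comparison, PSMA2 at 0.25 with HCC+ EVs and -0.13 with HCC- EVs, PSMA6 at 0.25 with HCC+ EVs and 0.27 with HCC- EVs. PSMA6 was called higher with HCC- EVs, at 0.61 without GC and length trends and 0.55 with total count scaling.

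In the beta rings, 5 of 7 standard genes fell with HCC+ EVs and 6 of 7 with HCC- EVs. The shares of all tested genes were 17.4% with HCC+ EVs and 28.5% with HCC- EVs, and those of abundant genes 36% and 57.3%. PSMB1 (ENSG00000008018, chromosome 6, positions 170535120 to 170553307) is a structural subunit. It was at 214, 232 and 223 CPM with HCC+ EVs and 167, 166 and 163 CPM with HCC- EVs, against 333, 319 and 299 CPM in the Blank. Every HCC- library lay below every HCC+ library and these below every Blank library, with log2 changes of -0.51 ± 0.063 with HCC+ EVs (adjusted p = 2.35e-07) and -0.94 ± 0.063 with HCC- EVs (adjusted p = 9.74e-14). These were the largest falls of the core with TMM scaling. With GC and length trends removed PSMB1 was at -0.29 with HCC+ EVs and -0.50 with HCC- EVs, and PSMA7, PSMB2 and PSMB3 had larger falls with HCC- EVs (-0.57, -0.56 and -0.53). PSMB2 (ENSG00000126067, chromosome 1, positions 35599541 to 35641526) is another structural subunit. It was at 191, 201 and 192 CPM with HCC+ EVs and 148, 149 and 143 CPM with HCC- EVs, against 258, 269 and 242 CPM in the Blank. It fell, at -0.40 ± 0.055 with HCC+ EVs (adjusted p = 1.42e-06) and -0.81 ± 0.055 with HCC- EVs (adjusted p = 1.39e-13) with the same order of groups. PSMB3 (ENSG00000277791, chromosome 17, positions 38752741 to 38764225) is a structural subunit. It was at 181, 174 and 171 CPM with HCC+ EVs and 136, 145 and 136 CPM with HCC- EVs, against 221, 237 and 205 CPM in the Blank. Its log2 changes were -0.33 ± 0.066 with HCC+ EVs (adjusted p = 0.000214) and -0.67 ± 0.066 with HCC- EVs (adjusted p = 4.75e-10). PSMB4 fell, at -0.21 ± 0.059 with HCC+ EVs (adjusted p = 0.00554) and -0.40 ± 0.059 with HCC- EVs (adjusted p = 1.06e-06). Without Blank replicate 2 the change of PSMB4 with HCC+ EVs was -0.14, and without GC and length trends -0.073, and neither passed.

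Of the 3 standard cutting subunits PSMB6 fell with both sources, PSMB7 with HCC- EVs and PSMB5 with neither. PSMB5 (ENSG00000100804, chromosome 14, positions 23016543 to 23035230) is the chymotrypsin-like subunit that bortezomib binds. It was at 268, 245 and 259 CPM with HCC+ EVs and 222, 246 and 234 CPM with HCC- EVs, against 243, 246 and 216 CPM in the Blank. The 3 groups overlapped, and the log2 changes of 0.13 ± 0.060 with HCC+ EVs (adjusted p = 0.0996) and -0.0067 ± 0.060 with HCC- EVs (adjusted p = 0.935) did not pass. PSMB5 was the one standard beta gene that fell in no comparison in the fit of all libraries. Between 1.2 and 0.048 mg/mL of HCC- EVs it was called lower without HCC- replicate 2 at 1.2 mg/mL (-0.16) or HCC- replicate 3 at 0.048 mg/mL (-0.17). Against the Blank it was called higher with both sources under total count scaling (0.25 with HCC+ EVs, 0.28 with HCC- EVs) and with GC and length trends removed (0.22 with HCC+ EVs, 0.16 with HCC- EVs). Without Blank replicate 2 its change with HCC+ EVs, 0.16, passed as well. PSMB6 (ENSG00000142507, chromosome 17, positions 4796144 to 4798502) is the caspase-like subunit. It was at 172, 164 and 174 CPM with HCC+ EVs and 137, 145 and 135 CPM with HCC- EVs, against 189, 215 and 181 CPM in the Blank. It fell, at -0.20 ± 0.061 with HCC+ EVs (adjusted p = 0.0111) and -0.49 ± 0.061 with HCC- EVs (adjusted p = 4.56e-08), though leaving out HCC+ replicate 2 (-0.18) or Blank replicate 2 (-0.12) ended the call with HCC+ EVs. PSMB7 (ENSG00000136930, chromosome 9, positions 124353465 to 124415444) is the trypsin-like subunit. It was at 226, 225 and 224 CPM with HCC+ EVs and 189.6, 189.6 and 201 CPM with HCC- EVs, against 225, 218 and 214 CPM in the Blank. It fell with HCC- EVs, at -0.18 ± 0.049 (adjusted p = 0.00275) and not with HCC+ EVs (0.040 ± 0.049, adjusted p = 0.587), but its sign with HCC- EVs turned to 0.10 under total count scaling and 0.030 without GC and length trends, and with HCC+ EVs both settings called it higher (0.16 under total count scaling, 0.17 without the trends).

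The immunoproteasome subunits had few reads, at most 3.08 CPM of PSMB9 in these groups. PSMB8 (ENSG00000204264, chromosome 6, positions 32840717 to 32844703) is the inducible counterpart of PSMB5. It was at 0.279, 0.210 and 0.425 CPM with HCC+ EVs and 0.360, 0.351 and 0.148 CPM with HCC- EVs, against 0.0677, 0.246 and 0.0499 CPM in the Blank, from 2 to 24 counts in a library of these groups. The libraries overlapped and the log2 changes of 1.28 ± 0.65 with HCC+ EVs (adjusted p = 0.136) and 1.18 ± 0.65 with HCC- EVs (adjusted p = 0.128) did not pass. Without Blank replicate 2 PSMB8 was called higher with both sources, at 2.35 with HCC+ EVs. PSMB9 (ENSG00000240065, chromosome 6, positions 32844136 to 32859851) is the counterpart of PSMB6. It was at 2.36, 3.08 and 1.96 CPM with HCC+ EVs and 1.80, 2.32 and 2.35 CPM with HCC- EVs, against 2.95, 2.41 and 1.92 CPM in the Blank, with log2 changes of 0.032 ± 0.22 with HCC+ EVs (adjusted p = 0.932) and -0.16 ± 0.22 with HCC- EVs (adjusted p = 0.55). PSMB10 (ENSG00000205220, chromosome 16, positions 67934506 to 67936864) is the counterpart of PSMB7. It was at 1.31, 1.34 and 0.831 CPM with HCC+ EVs and 2.02, 1.60 and 0.788 CPM with HCC- EVs, against 0.914, 0.911 and 0.749 CPM in the Blank. It rose with HCC- EVs (0.78 ± 0.32, adjusted p = 0.0425) with overlapping libraries, and not with HCC+ EVs (0.43 ± 0.33, adjusted p = 0.341). The call was lost in 5 of 6 fits that left out 1 library, at 0.47 without HCC- replicate 1, 0.73 without HCC- replicate 2, 0.81 without Blank replicate 1, 0.82 without Blank replicate 2 and 0.68 without Blank replicate 3. PSMB10 shares 39.4% of its exon bases with another gene on its strand.

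Among the 6 ATPases of the base, 1 fell with HCC+ EVs and 5 with HCC- EVs. The count with HCC+ EVs was near the share of all tested genes (17.4%) and below that of abundant genes (36%). With HCC- EVs 28.5% of all tested genes and 57.3% of abundant genes fell. PSMC3 (ENSG00000165916, chromosome 11, positions 47418769 to 47426473) is one of the ATPases whose tails dock into the alpha ring and help to open the gate. It was at 197, 200.3 and 209.5 CPM with HCC+ EVs and 133, 151 and 126 CPM with HCC- EVs, against 209, 227 and 226 CPM in the Blank. The HCC- libraries lay well below both other groups (-0.69 ± 0.062 against the Blank, adjusted p = 5.19e-11), while the HCC+ libraries touched the range of the Blank (-0.13 ± 0.062, adjusted p = 0.122). With GC and length trends removed the change of PSMC3 with HCC+ EVs was -0.12 and passed. PSMC6 (ENSG00000100519, chromosome 14, positions 52707178 to 52728590) is another subunit of the ring. It was at 88.9, 101 and 86.5 CPM with HCC+ EVs and 77.5, 72.9 and 71.6 CPM with HCC- EVs, against 117, 101 and 108 CPM in the Blank. It fell, at -0.23 ± 0.070 with HCC+ EVs (adjusted p = 0.00967) and -0.55 ± 0.070 with HCC- EVs (adjusted p = 7.15e-08). The fall of PSMC6 with HCC+ EVs, where 1 library overlapped the Blank, did not pass without HCC+ replicate 1 (-0.20), HCC+ replicate 3 (-0.19) or Blank replicate 1 (-0.18). PSMC2 (ENSG00000161057, chromosome 7, positions 103344254 to 103369395) is also a subunit of the ring. It was at 138, 157 and 147 CPM with HCC+ EVs and 120.1, 125 and 108 CPM with HCC- EVs, against 156, 146 and 147 CPM in the Blank. It fell with HCC- EVs (-0.35 ± 0.063, adjusted p = 2.3e-05), and its sign turned to 0.086 with GC and length trends removed, when it was called higher with HCC+ EVs (0.16). PSMC1 (ENSG00000100764, chromosome 14, positions 90256527 to 90275429) was at 107, 120.4 and 114 CPM with HCC+ EVs and 104, 105 and 96.8 CPM with HCC- EVs, against 124, 119 and 121 CPM in the Blank. It fell with HCC- EVs (-0.25 ± 0.061, adjusted p = 0.00103), but was at 0.037 under total count scaling, and it shares 76.1% of its exon bases with NRDE2 on the other strand. PSMC5 fell with HCC- EVs (-0.22 ± 0.050, adjusted p = 0.000341), with 0.060 under total count scaling, and PSMC4 passed with neither source, at -0.065 ± 0.064 with HCC+ EVs and -0.15 ± 0.064 with HCC- EVs. Without Blank replicate 3 PSMC4 was called lower with HCC- EVs.

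The 3 subunits of the base that are no ATPases fell with HCC- EVs, and 2 of them with HCC+ EVs. Of abundant genes 57.3% fell with HCC- EVs and 36% with HCC+ EVs, and of all tested genes 28.5% and 17.4%. PSMD4 (ENSG00000159352, chromosome 1, positions 151254703 to 151267479) is a ubiquitin receptor. It was at 212, 197 and 219 CPM with HCC+ EVs and 158, 172 and 144 CPM with HCC- EVs, against 245, 277 and 255 CPM in the Blank. The groups did not overlap, with log2 changes of -0.31 ± 0.064 with HCC+ EVs (adjusted p = 0.000363) and -0.71 ± 0.065 with HCC- EVs (adjusted p = 6.8e-11). PSMD1 (ENSG00000173692, chromosome 2, positions 231056864 to 231172827) is a scaffold of the base. It was at 233, 264 and 253 CPM with HCC+ EVs and 207, 217 and 197 CPM with HCC- EVs, against 317, 282 and 309 CPM in the Blank. It fell, at -0.28 ± 0.058 with HCC+ EVs (adjusted p = 0.000365) and -0.55 ± 0.058 with HCC- EVs (adjusted p = 1.72e-09). PSMD2 (ENSG00000175166, chromosome 3, positions 184299198 to 184309050) is the docking subunit for ubiquitin carriers and the proteasome gene with the most reads. It was at 743, 729 and 762 CPM with HCC+ EVs and 637, 679 and 648 CPM with HCC- EVs, against 709.5, 748 and 696 CPM in the Blank. Its fall with HCC- EVs was the smallest that passed (-0.13 ± 0.049, adjusted p = 0.0227), and turned to a called rise of 0.15 under total count scaling. It did not pass without HCC- replicate 1 (-0.11), HCC- replicate 3 (-0.12) or Blank replicate 2 (-0.11). With HCC+ EVs PSMD2 was at 0.053 ± 0.049 (adjusted p = 0.445), which did not pass, and was called higher at 0.17 under total count scaling.

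All 8 lid genes fell with HCC- EVs, and 6 of 8 with HCC+ EVs. The shares of abundant genes were 57.3% with HCC- EVs and 36% with HCC+ EVs, and those of all tested genes 28.5% and 17.4%. The lid carries the enzyme that cuts ubiquitin chains off the substrate. PSMD8 (ENSG00000099341, chromosome 19, positions 38374536 to 38383824) is a lid subunit that in yeast joins last during lid assembly. It was at 166, 169 and 173 CPM with HCC+ EVs and 119, 128 and 119 CPM with HCC- EVs, against 214, 256 and 206 CPM in the Blank. Its log2 changes of -0.41 ± 0.067 with HCC+ EVs (adjusted p = 1.45e-05) and -0.89 ± 0.068 with HCC- EVs (adjusted p = 1.62e-12) were the largest falls among the subunits of the cap, with no overlap between the 3 groups. PSMD12 (ENSG00000197170, chromosome 17, positions 67337916 to 67366605) is a scaffold subunit of the lid. It was at 182, 235 and 210 CPM with HCC+ EVs and 173, 144 and 143 CPM with HCC- EVs, against 278, 225 and 265 CPM in the Blank. It fell, at -0.29 ± 0.083 with HCC+ EVs (adjusted p = 0.00633) and -0.74 ± 0.083 with HCC- EVs (adjusted p = 5.52e-09), but the HCC+ libraries overlapped the Blank and the call was lost without HCC+ replicate 1 (-0.19) or Blank replicate 1 (-0.23). PSMD7 (ENSG00000103035, chromosome 16, positions 74296814 to 74306288) is the partner of the deubiquitinase. It was at 54.6, 61.2 and 65.4 CPM with HCC+ EVs and 47.9, 50.1 and 46.8 CPM with HCC- EVs, against 76.9, 78.98 and 78.6 CPM in the Blank. It fell, at -0.37 ± 0.065 with HCC+ EVs (adjusted p = 3.57e-05) and -0.70 ± 0.065 with HCC- EVs (adjusted p = 1.2e-10), the groups did not overlap, and 31.2% of its exon bases are shared with a gene on the other strand. PSMD13 (ENSG00000185627, chromosome 11, positions 236966 to 252984) is a further scaffold subunit. It was at 175, 189 and 188 CPM with HCC+ EVs and 137, 144 and 132 CPM with HCC- EVs, against 224, 206 and 202 CPM in the Blank. It fell, at -0.20 ± 0.057 with HCC+ EVs (adjusted p = 0.00762) and -0.61 ± 0.057 with HCC- EVs (adjusted p = 1.14e-10), and the fall with HCC+ EVs did not pass without HCC+ replicate 1 (-0.15) or Blank replicate 1 (-0.15). PSMD14, the deubiquitinase itself, fell, at -0.27 ± 0.063 with HCC+ EVs (adjusted p = 0.00124) and -0.53 ± 0.063 with HCC- EVs (adjusted p = 1.95e-08), but at 32.0% GC it is the most GC-poor member and was at -0.061 with HCC+ EVs and 0.015 with HCC- EVs with GC and length trends removed. PSMD6 fell, at -0.36 ± 0.062 with HCC+ EVs (adjusted p = 2.44e-05) and -0.38 ± 0.062 with HCC- EVs (adjusted p = 3.69e-06). The fall of PSMD6 with HCC- EVs did not pass with GC and length trends removed (-0.12) or under total count scaling (-0.0998). PSMD3 (-0.099 ± 0.062) and PSMD11 (-0.15 ± 0.061) did not pass with HCC+ EVs, and fell with HCC- EVs, PSMD3 at -0.34 ± 0.062 (adjusted p = 2.54e-05) and PSMD11 at -0.45 ± 0.061 (adjusted p = 2.32e-07). With GC and length trends removed both were called lower with HCC+ EVs. PSMD11 was also called lower with HCC+ EVs without HCC+ replicate 2 or Blank replicate 2.

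The chaperones that assemble the ATPase ring fell with HCC- EVs in all 3 cases, where 28.5% of all tested genes and 57.3% of abundant genes fell. PSMD10 (ENSG00000101843, chromosome X, positions 108084207 to 108091549) is also known as gankyrin and as an oncoprotein of liver cancer. It was at 60.8, 72.2 and 65.5 CPM with HCC+ EVs and 53.3, 54.6 and 48.6 CPM with HCC- EVs, against 88.7, 76.2 and 83.2 CPM in the Blank. It fell, at -0.32 ± 0.073 with HCC+ EVs (adjusted p = 0.000839) and -0.67 ± 0.073 with HCC- EVs (adjusted p = 3.66e-09), and the change with HCC+ EVs was -0.12 and did not pass with GC and length trends removed. PSMD9 (ENSG00000110801, chromosome 12, positions 121888731 to 121918297) was at 5.93, 5.65 and 4.85 CPM with HCC+ EVs and 4.59, 4.33 and 4.12 CPM with HCC- EVs, against 6.74, 6.65 and 6.76 CPM in the Blank. It fell with HCC- EVs (-0.63 ± 0.12, adjusted p = 6.31e-05), and the change with HCC+ EVs did not pass (-0.30 ± 0.12, adjusted p = 0.0607), although the HCC+ libraries all lay below the Blank. DESeq2 called PSMD9 lower with HCC+ EVs (-0.29, adjusted p = 0.0497), as did edgeR with GC and length trends removed (-0.35, adjusted p = 0.0208). PSMD5 (ENSG00000095261, chromosome 9, positions 120815496 to 120842951) was at 75.3, 78.3 and 77.8 CPM with HCC+ EVs and 68.4, 61.9 and 62.8 CPM with HCC- EVs, against 86.96, 74.2 and 84.9 CPM in the Blank. It fell with HCC- EVs (-0.35 ± 0.067, adjusted p = 5.44e-05), which did not pass with GC and length trends removed (-0.023), and was at -0.088 ± 0.067 with HCC+ EVs.

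The activators, which replace the cap on the barrel, split in direction. PSME1 (ENSG00000092010, chromosome 14, positions 24136163 to 24138967) is a subunit of the interferon-induced activator that opens the core for peptides. It was at 62.9, 65.6 and 64.02 CPM with HCC+ EVs and 43.00, 45.9 and 43.5 CPM with HCC- EVs, against 83.4, 81.9 and 74.9 CPM in the Blank. The 3 groups did not overlap, and the log2 changes were -0.32 ± 0.063 with HCC+ EVs (adjusted p = 0.000178) and -0.86 ± 0.063 with HCC- EVs (adjusted p = 7.67e-13). PSME2 (ENSG00000100911, chromosome 14, positions 24143362 to 24147570) is its partner subunit. It was at 72.6, 65.7 and 69.4 CPM with HCC+ EVs and 51.1, 57.6 and 48.3 CPM with HCC- EVs, against 73.1, 74.7 and 71.7 CPM in the Blank. PSME2 fell with HCC- EVs (-0.48 ± 0.066, adjusted p = 2.09e-07) and not with HCC+ EVs (-0.079 ± 0.065, adjusted p = 0.386). PSME3 (ENSG00000131467, chromosome 17, positions 42824385 to 42843758) is the nuclear activator. It was at 203, 227 and 226 CPM with HCC+ EVs and 171, 178 and 166 CPM with HCC- EVs, against 277, 256 and 269 CPM in the Blank. PSME3 fell with HCC+ EVs (-0.29 ± 0.054, adjusted p = 8.81e-05) and with HCC- EVs (-0.64 ± 0.055, adjusted p = 1.74e-11), without overlap between the groups. PSME4 (ENSG00000068878, chromosome 2, positions 53864069 to 53970993) is an activator known from DNA repair and from histone breakdown in sperm development. It was at 140, 149 and 145 CPM with HCC+ EVs and 138, 127 and 126 CPM with HCC- EVs, against 139.5, 106 and 126 CPM in the Blank. It rose with HCC+ EVs by 0.23 ± 0.075 (adjusted p = 0.0188), which did not pass without HCC+ replicate 2 (0.20) or Blank replicate 2 (0.12), and its change with HCC- EVs, 0.074 ± 0.075, did not pass but was called higher at 0.24 without GC and length trends and 0.36 under total count scaling. PSMF1 (ENSG00000125818, chromosome 20, positions 1113240 to 1189415) is named as an inhibitor of the core. It was at 125, 120.2 and 124 CPM with HCC+ EVs and 111, 114 and 117 CPM with HCC- EVs, against 134, 153 and 136 CPM in the Blank. It fell, at -0.20 ± 0.058 with HCC+ EVs (adjusted p = 0.00835) and -0.30 ± 0.058 with HCC- EVs (adjusted p = 4.64e-05), and the fall with HCC+ EVs was -0.14 and did not pass without Blank replicate 2.

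All 4 chaperones of core assembly fell with both sources with TMM scaling, and PSMG1 fell most of all proteasome genes. Over all tested genes 17.4% fell with HCC+ EVs and 28.5% with HCC- EVs, and among abundant genes 36% and 57.3%. Under total count scaling PSMG2 with HCC+ EVs (-0.15) and PSMG3 (-0.16) and PSMG4 (-0.031) with HCC- EVs did not pass. With GC and length trends removed PSMG4 had a larger fall than PSMG1 with HCC+ EVs (-0.59 and -0.54). PSMG1 (ENSG00000183527, chromosome 21, positions 39174769 to 39183851), which with PSMG2 builds the alpha ring, was at 48.2, 58.5 and 53.6 CPM with HCC+ EVs and 35.2, 35.3 and 31.9 CPM with HCC- EVs, against 85.8, 83.8 and 88.1 CPM in the Blank. Each HCC- library lay below each HCC+ library, and both groups lay below the Blank without overlap. The log2 changes were -0.68 ± 0.073 with HCC+ EVs (adjusted p = 1.43e-08) and -1.33 ± 0.074 with HCC- EVs (adjusted p = 1.19e-15). PSMG2 (ENSG00000128789, chromosome 18, positions 12658043 to 12725740) was at 41.6, 46.9 and 43.5 CPM with HCC+ EVs and 39.4, 36.2 and 38.96 CPM with HCC- EVs, against 56.1, 50.2 and 52.4 CPM in the Blank. It fell less than PSMG1, at -0.26 ± 0.076 with HCC+ EVs (adjusted p = 0.00728) and -0.47 ± 0.077 with HCC- EVs (adjusted p = 4.95e-06), and the fall with HCC+ EVs did not pass without HCC+ replicate 1 (-0.22). PSMG3 (ENSG00000157778, chromosome 7, positions 1567330 to 1571005) is a subunit of the second chaperone pair. It was at 34.03, 34.7 and 34.8 CPM with HCC+ EVs and 30.3, 33.8 and 37.4 CPM with HCC- EVs, against 43.9, 52.1 and 41.9 CPM in the Blank, with log2 changes of -0.41 ± 0.083 with HCC+ EVs (adjusted p = 0.000219) and -0.44 ± 0.083 with HCC- EVs (adjusted p = 3.5e-05). Its HCC+ and HCC- libraries overlapped, and both lay below the Blank. PSMG4 (ENSG00000180822, chromosome 6, positions 3231403 to 3303373) is the partner of PSMG3. It was at 9.96, 10.1 and 9.59 CPM with HCC+ EVs and 11.1, 10.8 and 11.4 CPM with HCC- EVs, against 11.4, 15.8 and 14.1 CPM in the Blank. Here the HCC+ libraries were the lowest and the HCC- libraries overlapped the Blank, at -0.48 ± 0.10 with HCC+ EVs (adjusted p = 0.00037) and -0.31 ± 0.10 (adjusted p = 0.00936) with HCC- EVs, and without Blank replicate 2 the change with HCC- EVs was -0.21 and did not pass.

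PSMC3IP (ENSG00000131470, chromosome 17, positions 42572315 to 42577831), which is named for binding PSMC3 and is known as a factor of homologous recombination, was at 14.6, 13.3 and 14.01 CPM with HCC+ EVs and 7.57, 8.11 and 8.29 CPM with HCC- EVs, against 12.9, 14.2 and 15.8 CPM in the Blank. The HCC- libraries were far below the other groups, at -0.84 ± 0.10 (adjusted p = 3.42e-08), and the HCC+ libraries overlapped the Blank (-0.036 ± 0.10, adjusted p = 0.83). It shares 29.9% of its exon bases with MLX on the other strand.

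The direct comparison of the sources at 1.2 mg/mL found proteasome genes higher with HCC+ than with HCC- EVs. Of 47 tested genes 35 were higher and 0 lower in edgeR's test, where over all tested genes 22.6% were higher and 12.7% lower. All HCC+ libraries lay above all HCC- libraries for 38 genes (26% of all tested genes) and below them for 1, PSMG4 (20.6%). DESeq2 called 34 higher and 0 lower, and 37 genes had an unadjusted p under 0.05 in edgeR. The median log2 difference of the 47 genes was 0.30, against 0.01 for all tested genes. Among tested genes averaging 5 log2 CPM or more 46.4% were higher, beside 32 of 38 proteasome genes. By role, 5 of 7 alpha, 6 of 7 beta, 5 of 6 ATPase, 3 of 3 other base, 7 of 8 lid, 3 of 3 base chaperone and 3 of 4 activator genes were higher. PSMC3IP had the largest difference (0.81 ± 0.10, adjusted p = 2.33e-07), followed by PSMG1 (0.65 ± 0.073, adjusted p = 3.23e-08), PSMC3 (0.57 ± 0.062, adjusted p = 1.6e-08) and PSME1 (0.54 ± 0.063, adjusted p = 5.78e-08). For these 4 genes every HCC+ library was above every HCC- library. The 3 other core assembly chaperones differed less, with PSMG2 at 0.20 ± 0.076 (adjusted p = 0.037), PSMG3 at 0.030 ± 0.083 and PSMG4 at -0.17 ± 0.10, of which only PSMG2 passed. PSMB5 was at 0.14 ± 0.060 (adjusted p = 0.0778), PSME4 at 0.15 ± 0.074 (adjusted p = 0.115), PSMD6 at 0.019 ± 0.061 (adjusted p = 0.848) and PSMF1 at 0.11 ± 0.058 (adjusted p = 0.158), and none of them passed.

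Some of these source differences rested on few libraries or on the scaling. PSMA1 (0.47) was at 0.38 without HCC+ replicate 2 and 0.28 without HCC- replicate 2, PSMB4 (0.19) at 0.16 without HCC- replicate 1, and none of these passed. PSMC1 (0.15) passed in 1 of 6 fits without a library, and PSMD9 (0.33) and PSMG2 in 2 of 6 each. Under total count scaling the median of all genes was -0.16 and that of the proteasome genes 0.13, and 19 genes were higher and 1, PSMG4, was lower (-0.33). Of all 19556 tested genes 2342 were higher and 4572 lower under that scaling. With GC and length trends removed 27 were higher and 1, PSMD6, was lower (-0.17), where 3607 of all tested genes were higher and 4200 lower. The median of the proteasome genes was then 0.15, against -0.089 for all tested genes, and PSMD14 (0.26) was at -0.075.

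**Figure D3:**
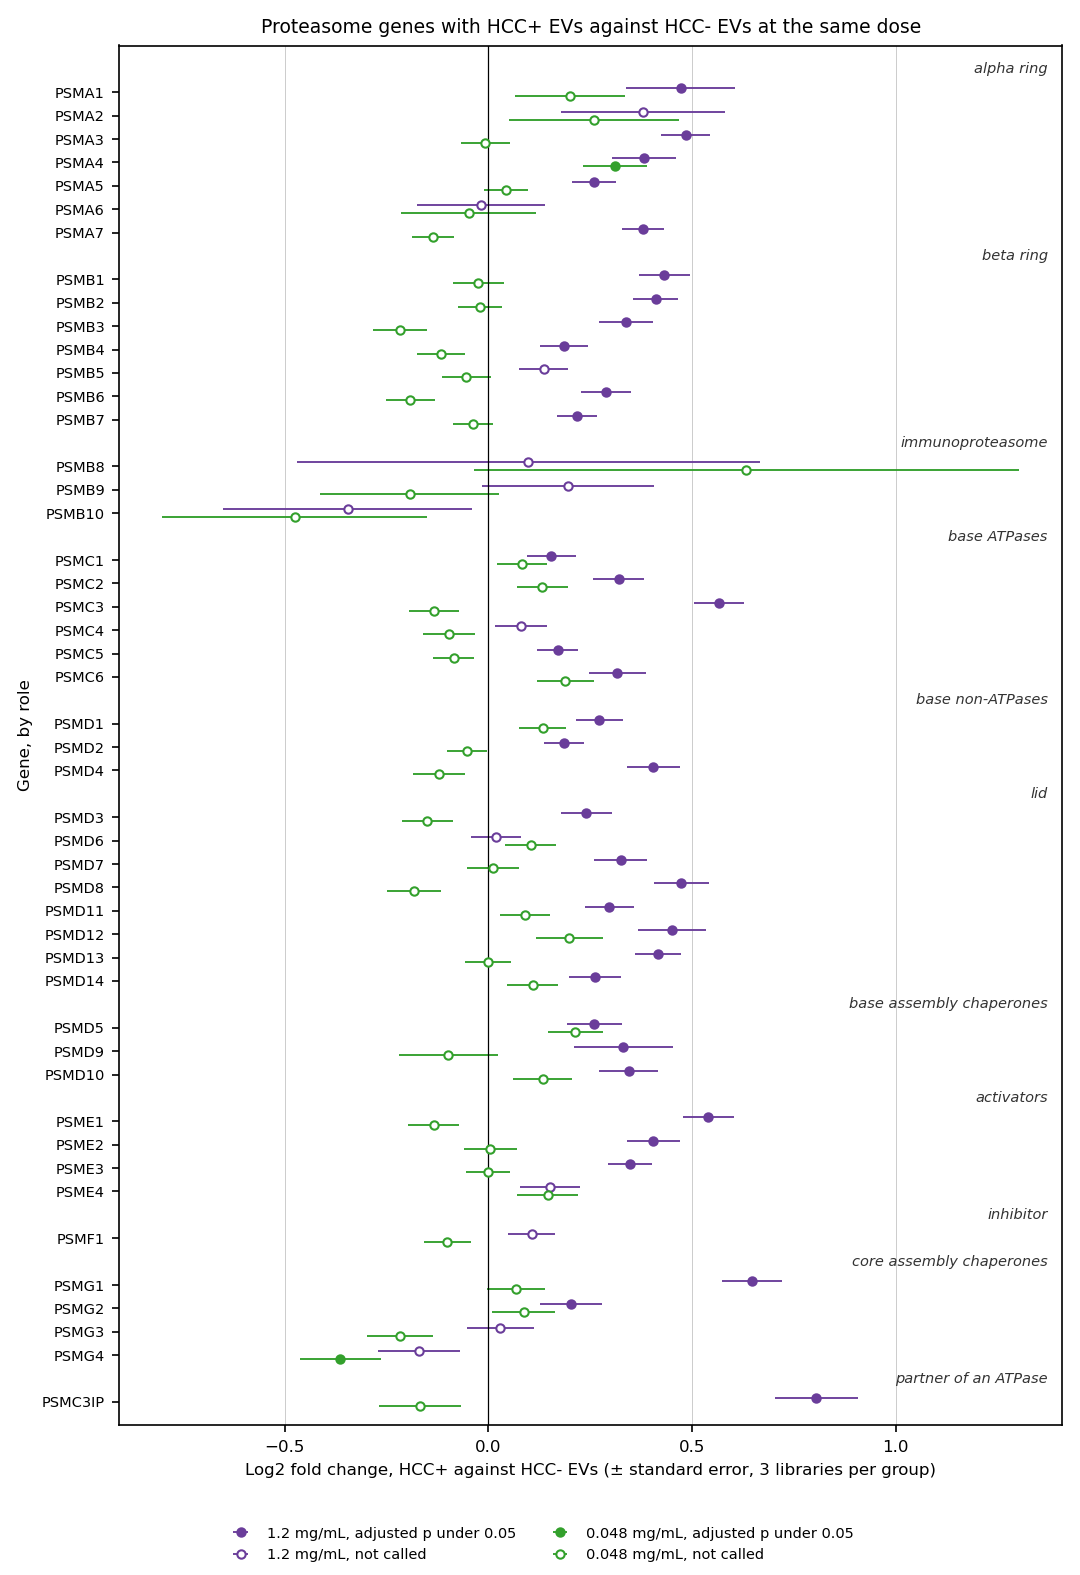
Log2 fold change of HCC+ against HCC- EVs (horizontal axis, ± standard error, 3 libraries per group) of the 47 tested genes by role, at 1.2 mg/mL (violet) and 0.048 mg/mL (green), with filled points for adjusted p under 0.05. At 1.2 mg/mL 35 points are filled and lie right of 0, and at 0.048 mg/mL 2 points are filled, PSMA4 on the right and PSMG4 on the left.

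At the lower doses proteasome genes were called against the Blank only with HCC- EVs at 0.048 mg/mL. Their numbers there were near the shares of abundant genes, given below. At 0.24 mg/mL 0 of 47 genes were called against the Blank with either source in edgeR, and DESeq2 also called 0, while 4 genes with HCC+ EVs and 5 with HCC- EVs had an unadjusted p under 0.05. Over all tested genes 0.00511% were called with HCC+ EVs and 0% with HCC- EVs at that dose. At 0.048 mg/mL 0 genes were called with HCC+ EVs by edgeR or DESeq2, with 1 gene at an unadjusted p under 0.05, where 0% of all tested genes were called. Between the sources at 0.24 mg/mL neither test made a call (0 genes by edgeR or DESeq2, 1 at an unadjusted p under 0.05 in edgeR, and 0% of all tested genes called). PSMG1 was at 72.8, 82.2 and 82.8 CPM with HCC+ EVs at 0.048 mg/mL, 78.9, 73.03 and 77.8 CPM at 0.24 mg/mL and 48.2, 58.5 and 53.6 CPM at 1.2 mg/mL. With HCC- EVs it was at 81.8, 69.99 and 74.8 CPM at 0.048 mg/mL, 78.1, 74.1 and 77.3 CPM at 0.24 mg/mL and 35.2, 35.3 and 31.9 CPM at 1.2 mg/mL. In both series the libraries of the lower doses overlapped each other, lay below the Blank at 85.8, 83.8 and 88.1 CPM, and lay above those at 1.2 mg/mL. None of these lower doses gave a call of PSMG1 against the Blank in edgeR, but at 0.048 mg/mL of HCC- EVs DESeq2 called it lower (-0.19, adjusted p = 0.0436), as did edgeR without Blank replicate 2 (-0.20, adjusted p = 0.0471). With HCC+ EVs PSMB1 was at 286, 297 and 299.8 CPM at 0.048 mg/mL, 279.6, 276 and 285 CPM at 0.24 mg/mL and 214, 232 and 223 CPM at 1.2 mg/mL. With HCC- EVs PSMB1 was at 308, 325 and 264 CPM at 0.048 mg/mL, 308, 292 and 276 CPM at 0.24 mg/mL and 167, 166 and 163 CPM at 1.2 mg/mL. In both series each library at 1.2 mg/mL lay below all libraries at the lower doses.

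**Figure D4:**
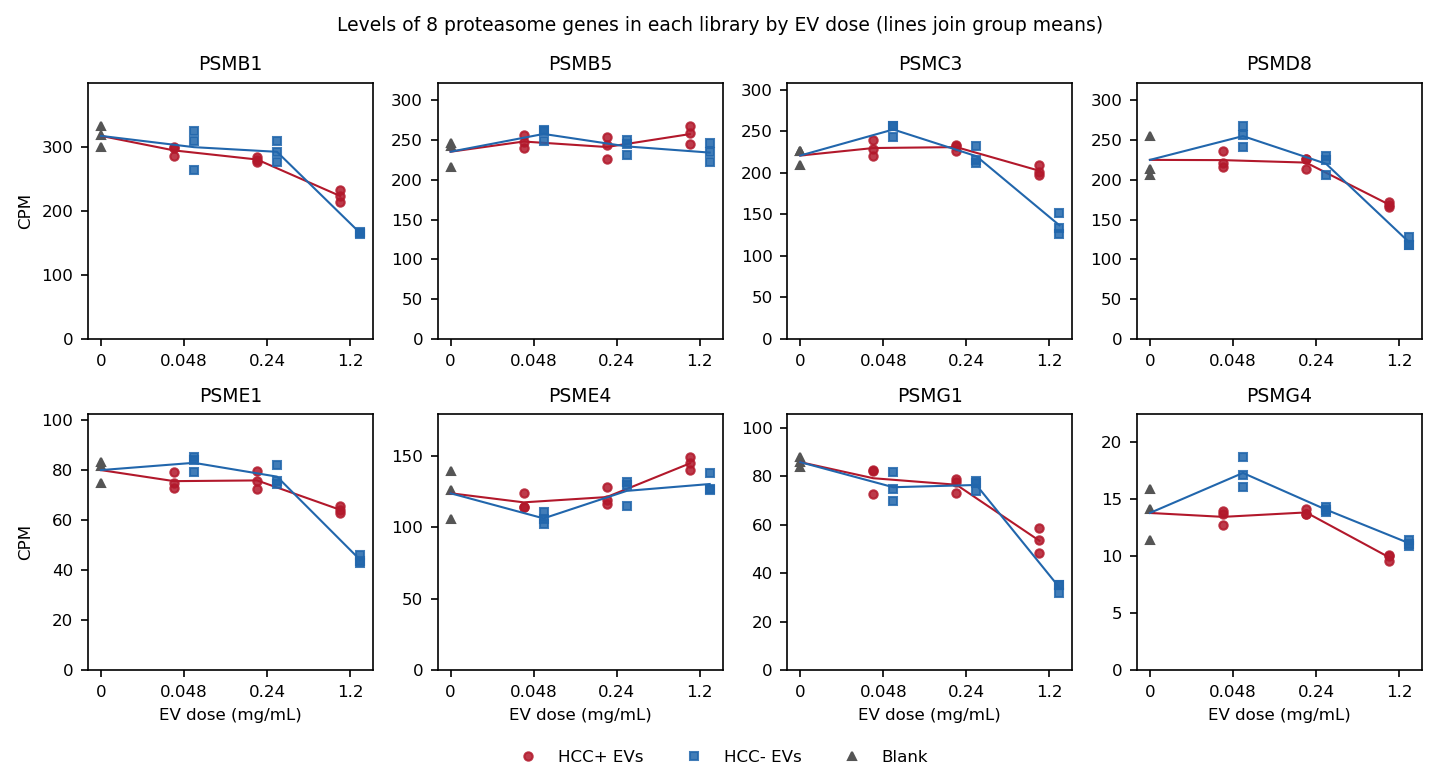
CPM in each of the 21 libraries against EV dose in mg/mL (doses drawn at equal steps) for PSMB1, PSMB5, PSMC3, PSMD8, PSME1, PSME4, PSMG1 and PSMG4, with HCC+ EVs as circles, HCC- EVs as squares, the Blank as triangles at dose 0 and lines through group means. PSMG1 at 1.2 mg/mL lies at 48.2 to 58.5 CPM with HCC+ EVs and 31.9 to 35.3 CPM with HCC- EVs, below all lower doses and the Blank, while PSMB5 keeps overlapping ranges.

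Within a source, 1.2 against 0.048 mg/mL gave a comparison that does not use the Blank. With HCC+ EVs 23 of 47 genes fell and 1 rose, where 14.9% of all tested genes fell and 13.4% rose. With HCC- EVs 38 fell and 1 rose, where 28% fell and 24.9% rose. The libraries at 1.2 mg/mL are the ones also compared with the Blank, so the falls in both comparisons are no independent evidence. Among tested genes averaging 5 log2 CPM or more 31.1% fell with HCC+ EVs and 55.1% with HCC- EVs, beside 22 and 34 of 38 proteasome genes. PSME4 was the gene that rose with each source, by 0.30 ± 0.075 with HCC+ EVs (adjusted p = 0.00253) and by 0.29 ± 0.075 with HCC- EVs (adjusted p = 0.00129), with libraries of 124, 114 and 114 CPM at 0.048 mg/mL of HCC+ EVs and 106, 102 and 110.4 CPM at 0.048 mg/mL of HCC- EVs below all libraries at 1.2 mg/mL. The largest falls were PSMG1 with HCC+ EVs (-0.57 ± 0.073, adjusted p = 5.33e-07) and PSMG1 (-1.15 ± 0.074, adjusted p = 2.9e-14), PSMD8 (-1.07 ± 0.068, adjusted p = 2.42e-14) and PSMC3IP (-1.07 ± 0.10, adjusted p = 2.17e-10) with HCC- EVs. Under total count scaling 12 genes fell and 1 rose with HCC+ EVs, where 1805 of all tested genes fell and 3838 rose. With HCC- EVs 24 fell and 6 rose, where 2979 of all tested genes fell and 8382 rose.

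At 0.048 mg/mL of HCC- EVs 7 of 47 genes were higher than in the Blank and 8 were lower, where 8.28% of all tested genes were higher and 8.16% lower. Among tested genes averaging 5 log2 CPM or more 18.6% were higher and 18.5% lower, beside 6 and 8 of the 38 proteasome genes in that range. The counts of proteasome genes were thus near the shares of abundant genes. The genes that were higher, PSMA7, PSMB6, PSMC3, PSMD2, PSMD4, PSMG3 and PSMG4, had 52.6% to 58.8% GC in their transcripts. The genes that were lower, PSMA4, PSMC6, PSMD1, PSMD5, PSMD6, PSMD12, PSMD14 and PSME4, had 32.0% to 44.2% GC. PSMG4 was at 18.7, 16.1 and 17.1 CPM in these libraries, against 11.4, 15.8 and 14.1 CPM in the Blank, a log2 change of 0.32 ± 0.10 (adjusted p = 0.0287). PSMD12 was at 213, 204 and 199 CPM, against 278, 225 and 265 CPM in the Blank, a log2 change of -0.32 ± 0.083 (adjusted p = 0.013). For both genes Blank replicate 2 was the Blank library nearest to the HCC- libraries. After removing the trends of each library with GC content and length, 0 genes were higher and 0 lower, PSMG4 was at 0.23 and PSMD12 at -0.058. Of all 19556 tested genes 67 were higher and 36 lower then. Leaving out a library gave 0 higher and 4 lower without HCC- replicate 1, 0 and 0 without replicate 2, and 2 and 4 without replicate 3. It gave 0 and 0 without Blank replicate 1, 14 and 12 without Blank replicate 2, and 0 and 0 without Blank replicate 3. The calls of all tested genes moved in the same way. They were 658 higher and 853 lower without HCC- replicate 1, 411 and 295 without replicate 2, and 1028 and 802 without replicate 3. Without Blank replicate 1 they were 0 and 1, without Blank replicate 2 they were 2925 and 2801, and without Blank replicate 3 they were 8 and 4. Against HCC- EVs at this dose, HCC+ EVs gave 1 higher gene, PSMA4 (0.31 ± 0.079, adjusted p = 0.0331), and 1 lower, PSMG4 (-0.36 ± 0.10, adjusted p = 0.0412), where 1.08% of all tested genes were higher and 2.46% lower.

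**Figure D5:**
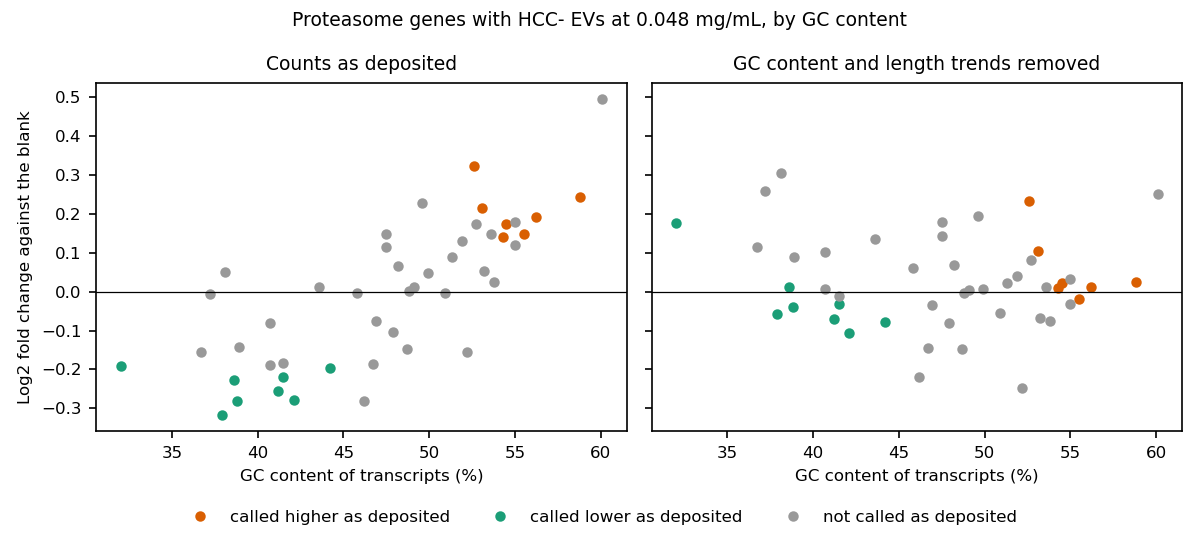
Log2 fold change of HCC- EVs at 0.048 mg/mL against the Blank (vertical axis) against the GC content of each gene's transcripts in percent, for 47 genes from the counts as deposited (left) and with GC and length trends removed (right). On the left the 7 genes called higher lie at 52.6% GC or more and the 8 called lower at 44.2% or less, and on the right no gene is called. Colours mark the calls from the counts as deposited.

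The difference between the sources was larger at 1.2 than at 0.048 mg/mL for 22 of 47 genes and smaller for 0, where 16.7% and 7.63% of all tested genes were called in these directions. DESeq2 called 24 and 0, and 30 genes had an unadjusted p under 0.05 in edgeR. Among tested genes averaging 5 log2 CPM or more 36.3% were called in the first direction, beside 21 of 38 proteasome genes. The called genes included 6 of 7 standard beta genes, 3 of 4 activators and 4 of 8 lid genes. PSMC3 differed by 0.57 ± 0.062 at 1.2 mg/mL and -0.13 ± 0.062 at 0.048 mg/mL, a difference of 0.70 ± 0.087 (adjusted p = 4.79e-07). PSME1 differed by 0.54 ± 0.063 at 1.2 mg/mL and -0.13 ± 0.063 at 0.048 mg/mL, a difference of 0.67 ± 0.089 (adjusted p = 1.18e-06). PSMA5 (0.22 ± 0.076, adjusted p = 0.0346) lost its call in 8 of 12 fits that left out a library, and PSMD7 (0.31) without HCC+ replicate 3 at 1.2 mg/mL (0.25). Under total count scaling 13 proteasome genes were called larger and 1 smaller, where 1631 and 3219 of all tested genes were. With GC and length trends removed they were 21 and 0, where 2870 and 2888 of all tested genes were called.

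The genes that work with the proteasome are given from lists of partners, of NRF1 control, of ubiquitin and its activation, of carriers and VCP, and of antigen processing, chosen with earlier results of these data known. Of 11 partners 7 fell and 0 rose with HCC+ EVs at 1.2 mg/mL against the Blank, and 8 fell and 0 rose with HCC- EVs. These and the next counts stand beside falls of 17.4% of all tested genes with HCC+ EVs and 28.5% with HCC- EVs. Among tested genes averaging 5 log2 CPM or more the shares were 36% with HCC+ EVs and 57.3% with HCC- EVs. PAAF1, which binds the ATPases, fell, at -1.17 ± 0.15 with HCC+ EVs (adjusted p = 3.7e-07) and -1.36 ± 0.15 with HCC- EVs (adjusted p = 4.31e-09). UCHL5 fell, at -0.55 ± 0.079 with HCC+ EVs (adjusted p = 2.34e-06) and -1.08 ± 0.080 with HCC- EVs (adjusted p = 7.89e-13), and USP14, at -0.31 ± 0.077 with HCC+ EVs (adjusted p = 0.00181) and -0.73 ± 0.077 with HCC- EVs (adjusted p = 1.85e-09). Both are deubiquitinases docked on the cap. SEM1, the smallest lid subunit, fell, at -0.39 ± 0.069 with HCC+ EVs (adjusted p = 4.97e-05) and -0.72 ± 0.069 with HCC- EVs (adjusted p = 2.42e-10), and POMP, which builds the beta ring, at -0.24 ± 0.069 with HCC+ EVs (adjusted p = 0.00688) and -0.65 ± 0.069 with HCC- EVs (adjusted p = 2e-09).

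Of the 8 genes of NRF1 control 4 fell and 0 rose with HCC+ EVs, and 4 fell and 2 rose with HCC- EVs. With HCC- EVs the falls were no more than the share of abundant genes (57.3%). The rises with HCC- EVs were near the share of all tested genes (24.8%). NGLY1 and DDI2 are enzymes that process NRF1 before it enters the nucleus. NGLY1 fell, at -0.33 ± 0.086 with HCC+ EVs (adjusted p = 0.00309) and -0.84 ± 0.087 with HCC- EVs (adjusted p = 1.09e-09). DDI2 fell, at -0.25 ± 0.073 with HCC+ EVs (adjusted p = 0.00789) and -0.48 ± 0.073 with HCC- EVs (adjusted p = 1.9e-06). NFE2L2, the relative of NRF1 known from the oxidative stress response, fell, at -0.35 ± 0.062 with HCC+ EVs (adjusted p = 5.49e-05) and -0.33 ± 0.062 with HCC- EVs (adjusted p = 4.6e-05), and NFE2L3, at -0.34 ± 0.065 with HCC+ EVs (adjusted p = 0.000118) and -0.47 ± 0.065 with HCC- EVs (adjusted p = 3.63e-07). NFE2L1 was lower with HCC+ than with HCC- EVs, at -0.24 ± 0.068 (adjusted p = 0.00669), and against the Blank was at 0.0053 ± 0.068 with HCC+ EVs, which did not pass, and rose by 0.24 ± 0.068 with HCC- EVs (adjusted p = 0.0033). The HCC- libraries, with the lowest proteasome sums, thus had the higher NFE2L1 transcript level.

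Of the 6 ubiquitin and E1 genes 2 fell with HCC+ EVs and 6 with HCC- EVs. The count with HCC+ EVs was near the share of abundant genes (36%). RPS27A, which encodes ubiquitin fused to a ribosomal protein, fell, at -0.30 ± 0.061 with HCC+ EVs (adjusted p = 0.000293) and -0.39 ± 0.061 with HCC- EVs (adjusted p = 3.14e-06). With HCC- EVs UBB, a polyubiquitin gene, was lower (-0.34 ± 0.066, adjusted p = 7.07e-05), as was UBA1, the main ubiquitin-activating enzyme (-0.27 ± 0.056, adjusted p = 0.000122). Of 11 genes of carriers and VCP 5 fell with HCC+ EVs and 7 with HCC- EVs, and 0 rose with either, so that the count with HCC- EVs was near the share of abundant genes. RAD23B, which brings ubiquitinated proteins to the cap, fell, at -0.41 ± 0.053 with HCC+ EVs (adjusted p = 3.35e-07) and -0.63 ± 0.053 with HCC- EVs (adjusted p = 1.18e-11), and FAF1, a VCP cofactor, at -0.50 ± 0.073 with HCC+ EVs (adjusted p = 3.28e-06) and -0.88 ± 0.074 with HCC- EVs (adjusted p = 1.31e-11).

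Of 12 genes of antigen processing 5 rose and 2 fell with HCC+ EVs, where 15.6% of all tested genes rose and 17.4% fell. With HCC- EVs 3 rose and 3 fell, near the shares of all tested genes (24.8% higher, 28.5% lower). TAPBP, the chaperone that loads peptides onto class I molecules, rose by 0.66 ± 0.067 with HCC+ EVs (adjusted p = 6e-09) and 0.69 ± 0.067 with HCC- EVs (adjusted p = 2.29e-10), and TAP1, a subunit of the peptide transporter, by 0.54 ± 0.087 with HCC+ EVs (adjusted p = 1.37e-05) and 0.49 ± 0.087 with HCC- EVs (adjusted p = 1.64e-05). TAP2, the other subunit, fell, at -0.27 ± 0.091 with HCC+ EVs (adjusted p = 0.023) and -1.19 ± 0.094 with HCC- EVs (adjusted p = 2.92e-12) and was higher with HCC+ than with HCC- EVs by 0.93 ± 0.093 (adjusted p = 3.22e-09). NLRC5, the activator of class I genes, rose with HCC+ EVs by 0.63 ± 0.14 (adjusted p = 0.00082) and was at 0.087 ± 0.14 with HCC- EVs, which did not pass. B2M, the light chain of class I molecules, fell, at -0.19 ± 0.065 with HCC+ EVs (adjusted p = 0.0205) and -0.61 ± 0.066 with HCC- EVs (adjusted p = 2.61e-09).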

How the data were processed

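Poly(A) RNA of 21 HCT-116 libraries, 3 for each of 7 groups taken from the labels, was measured as counts of reads per gene, which the authors deposited unnormalized. Per the submitters' processing notes, cutadapt 3.4, HISAT2 2.2.1, featureCounts 2.0.1 and GRCh38 were used; no source used here gives the annotation release, the strand setting or the treatment of reads with several matches. Genes passing edgeR's filter on low counts (19556) were scaled by TMM and tested with edgeR 4.0.16 (quasi-likelihood, limma 3.58.1, R 4.3.3) in one fit of all 7 groups, with adjustment over all tested genes. The precision follows from totals of 31219343 to 64012757 counts per library and 14 residual degrees of freedom, and intervals and floors cover counting error only. The tests were checked on simulated data.

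The members and gene lists were chosen with earlier results of these data known. Genes named with values were the cutting and immunoproteasome subunits, up to 4 called members per role with the largest change at 1.2 mg/mL, and up to 4 called genes per pathway list with the smallest p. A few genes that this rule takes are not reported here. Alternatives were DESeq2 1.42.0, RLE size factors, total count scaling, no filter, a replicate block, removal of the trends with GC content and length in each library, fits of only the groups compared, and leaving out each library. Promoters came from the RefSeq table for GRCh38.p14, searched with Python 3.11.15, and figures were drawn with matplotlib 3.10.9.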

Additional observations from a re-analysis of the deposited data

Results flagged for a closer look

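For 22 of 47 tested proteasome genes the difference between HCC+ and HCC- EVs was larger at 1.2 than at 0.048 mg/mL by edgeR's test of that difference between doses (adjusted p under 0.05). The same call was made for 16.7% of all tested genes and 36.3% of those averaging 5 log2 CPM or more. The values are log2 differences of the source effect, 1.2 minus 0.048 mg/mL. In the core, PSMA3 differed by 0.49, PSMA5 by 0.22, PSMA7 by 0.52, PSMB1 by 0.46, PSMB2 by 0.43, PSMB3 by 0.56, PSMB4 by 0.30, PSMB6 by 0.48 and PSMB7 by 0.26. In the cap, PSMC3 differed by 0.70, PSMC5 by 0.26, PSMD2 by 0.24, PSMD3 by 0.39, PSMD4 by 0.53, PSMD7 by 0.31, PSMD8 by 0.66 and PSMD13 by 0.42. Among the regulators, PSME1 differed by 0.67, PSME2 by 0.40, PSME3 by 0.35 and PSMG1 by 0.58, and PSMC3IP, which is no subunit, by 0.97. PSMA5 lost this call in 8 of 12 fits without a library and PSMD7 in 1. With GC and length trends removed PSMA5, PSMB7 and PSMD2 lost it, and PSMD12 and PSMF1 gained it. Under total count scaling PSMA5, PSMB4, PSMB7, PSMC5, PSMD2, PSMD3, PSMD7, PSME2 and PSME3 lost it, and PSMD6 was called in the other direction.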

How the results depend on the processing

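Of 203 called values of proteasome genes, 200 kept their direction and call under DESeq2, 196 under RLE size factors, 186 without the filter, 178 with only the groups compared, 150 with GC and length trends removed and 127 under total count scaling. For HCC+ EVs at 1.2 mg/mL against the Blank (1 higher, 25 lower), total count scaling gave 4 and 15, removal of trends 4 higher, and only the groups compared 0 higher. For HCC- EVs at 1.2 mg/mL (1 higher, 39 lower), total count scaling gave 5 higher, removal of trends 4, and the unfiltered fit, only the groups compared and DESeq2 0 each. For HCC- EVs at 0.048 mg/mL (7 higher, 8 lower), total count scaling and the unfiltered fit gave 4 higher each, DESeq2 11 higher, only the groups compared 0 and 5, and removal of trends 0 and 0. For HCC+ against HCC- EVs at 1.2 mg/mL (35 higher, 0 lower), total count scaling gave 19 and 1, and removal of trends 1 lower. At 0.048 mg/mL (1 higher, 1 lower), total count scaling gave 2 and 0, RLE 3 lower, the unfiltered fit 2 lower, removal of trends 0 and 0, only the groups compared 5 and 11, and DESeq2 2 and 6. Over all tested genes the reported fit called 212 higher and 481 lower there. The fit of only the groups compared called 1540 and 2101, DESeq2 604 and 1429, and removal of trends 13 and 31. For 1.2 against 0.048 mg/mL, total count scaling gave 12 lower with HCC+ EVs (23 in the reported fit), and 6 higher and 24 lower with HCC- EVs (1 and 38), and removal of trends gave 3 and 2 higher (1 each). For the difference between doses (22 larger, 0 smaller), total count scaling gave 13 and 1. The cause of these shifts was not tested.

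Leaving out 1 library gave 0 to 2 higher and 21 to 25 lower with HCC+ EVs at 1.2 mg/mL, 0 to 1 higher and 37 to 40 lower with HCC- EVs, and 31 to 34 higher for HCC+ against HCC- EVs. It gave 0 to 14 higher and 0 to 12 lower with HCC- EVs at 0.048 mg/mL, 0 to 1 each way between sources at that dose, 16 to 23 lower for 1.2 against 0.048 mg/mL of HCC+ EVs, and 21 to 24 for the difference between doses. With HCC- EVs at 0.048 mg/mL the calls over all tested genes ranged from 0 to 2925 higher and from 1 to 2801 lower.

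With GC and length trends removed the sign turned for PSMB7 (0.030), PSMC2 (0.086) and PSMD14 (0.015) with HCC- EVs at 1.2 mg/mL, for PSMA7 (-0.020), PSMD6 (0.011) and PSMD14 (0.18) at 0.048 mg/mL, for PSMD14 between sources (-0.075) and for PSMB7 between HCC- doses (0.025). Under total count scaling it turned with HCC- EVs for PSMB7 (0.10), PSMC1 (0.037), PSMC5 (0.060) and PSMD2 (0.15), between sources for PSMC1 (-0.0084), and between HCC- doses for PSMA4 (0.097), PSMB7 (0.064), PSMC2 (0.087), PSMC4 (0.027), PSMC6 (0.023), PSMD2 (0.017) and PSMD6 (0.14).

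Replicate numbers did not pair the libraries: of 63 same-numbered pairs 1 had a correlation of deviations over 0.1 (-0.0954 to 0.115), and 9 of 21 libraries were closest to their own number. The replicate block kept 202 of 203 calls, losing PSMC1 between sources, and at 0.048 mg/mL between sources gave 2 higher and 3 lower. The replicate block with GC and length trends removed gave 4 higher against the Blank at 1.2 mg/mL with either source, 0 and 0 with HCC- EVs at 0.048 mg/mL and between sources there, 1 lower between sources at 1.2 mg/mL, and 3 and 2 higher between doses. It turned PSMB7 (0.030), PSMC2 (0.084) and PSMD14 (0.010) with HCC- EVs at 1.2 mg/mL, PSMA7 (-0.019), PSMD6 (0.013) and PSMD14 (0.18) at 0.048 mg/mL, PSMD14 between sources (-0.068) and PSMB7 between HCC- doses (0.024).

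Depth limits PSMA8, PSMB11 and PSMB8, with 8, 10 and 242 counts in all libraries.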
